A study of Mus musculus with 6 samples.

Results

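The endoderm transcription factors described here are Hnf4a, Foxa1, Foxa2, Foxa3, Gata6, Sox7, Sox17 and Hhex, 8 of the 24062 genes in the deposited tables, taken by gene symbol because they are known regulators of visceral or foregut endoderm. All 8 passed the filter on low counts. They were measured by polyA-selected RNA-seq of dissected C57BL/6 mouse embryo heads at embryonic day 8.5, in 2 libraries of each of 3 genotypes. Mutant heads carried Prdm15 tm1a-/-, heterozygous heads Prdm15 tm1a+/- and wild-type heads Prdm15 tm1a+/+, where tm1a is a knockout-first insertion allele and Prdm15 encodes a PRDM zinc finger protein. The labels speak of 2 heads per genotype and do not name litters, so each p-value reflects differences among the sequenced libraries, which may be technical in part.

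Endoderm exists in separate populations at this stage. Visceral endoderm is the extraembryonic epithelium that lines the yolk sac and makes serum proteins such as apolipoproteins and alpha-fetoprotein; foregut endoderm lies inside the head and gives rise to the pharynx, thyroid, lung and liver. Gata6 and Sox7 act early in extraembryonic endoderm, Hnf4a drives the liver-type programme of visceral endoderm and later of hepatocytes, and the Foxa factors open chromatin in both populations, as well as in floor plate and notochord in the case of Foxa1 and Foxa2. Sox17 and Hhex serve visceral and definitive endoderm and, with Sox7, blood vessel endothelium. Gata6 is in addition a factor of heart mesoderm. In RNA of a whole head, more cells of a type and more RNA per cell cannot be told apart.

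Prdm15 itself stood at 4.16 and 5.04 RPKM in mutant, 4.47 and 5.01 RPKM in heterozygous and 5.56 and 5.14 RPKM in wild-type libraries. The mutant difference of -0.21 on the log2 scale (SE 0.12, adjusted p = 0.221, edgeR's quasi-likelihood test against wild type) did not pass, and whole-gene counts do not show where in the gene the reads lie, so Prdm15 does not check the genotype labels here. The libraries held between 29412227 and 40439234 reads in genes. For 2 samples, mutant replicate 1 and wild-type replicate 2, the attached count file carries the title of the other. The file titled as the mutant differed in zero status from the RPKM column of that title at 0 genes and from the column of the wild-type sample it is attached to at 1646 genes, and its count to RPKM ratios lay within 0.1% of 1 constant at 100% of 12064 genes against the titled column. Levels below are the authors' deposited RPKM (reads per kilobase of gene and per fixed number of mapped reads) under the sample titles, and tests use the counts assigned by title. With the count files as attached, 0 of the 8 factors passed edgeR's quasi-likelihood test in any of the 3 comparisons, with 0 of the 8 at an unadjusted p under 0.05, and 0 of all 15187 genes passed (318, 48 and 422 at an unadjusted p under 0.05 in mutant against wild-type, heterozygous against wild-type and mutant against heterozygous heads).

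Of the 8 factors, 6 rose in mutant against wild-type heads and 0 fell, where 30.6% of all genes tested passed, 17.1% as higher (2594 higher and 2060 lower, or 2328 and 2709 when scaled by library totals alone). In heterozygous against wild-type heads 4 rose and 0 fell, where 6.56% of all genes passed, 6.03% as higher. In mutant against heterozygous heads 0 of 8 passed edgeR's quasi-likelihood test, where 0.435% of all genes passed, 0.0724% as higher. An unadjusted p under 0.05 was found there for 3 of the 8 and for 3228 of all 15187 genes. DESeq2 passed 2, Hnf4a and Sox17, where it passed 1313 of 13420 genes. The likelihood ratio test passed the same 2, where it passed 801 of 15187 genes. The median log2 fold change of the 8 was 0.88, 0.63 and 0.40 in the 3 comparisons, beside -0.02, -0.01 and 0.00 over all genes tested. Both mutant libraries lay above both wild-type libraries in RPKM for 7 of the 8, as for 34.1% of all genes (36.9% were the other way round), and both heterozygous libraries lay above both wild-type libraries for 8 of the 8, as for 28.3% of all genes. Both mutant libraries lay above both heterozygous libraries for 5 of the 8 (26.8% of all genes) and below them for 1, Hhex (27.4% of all genes). The factors differed in size of change. The fitted fold in mutant heads was 353 for Hnf4a, 23.4 for Foxa3, 10.8 for Gata6 and 2.24 for Sox17, the next. The log2 value of Gata6 was 3.43, or 4.23 without wild-type replicate 1 and 2.93 without wild-type replicate 2.

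**Figure D1:**
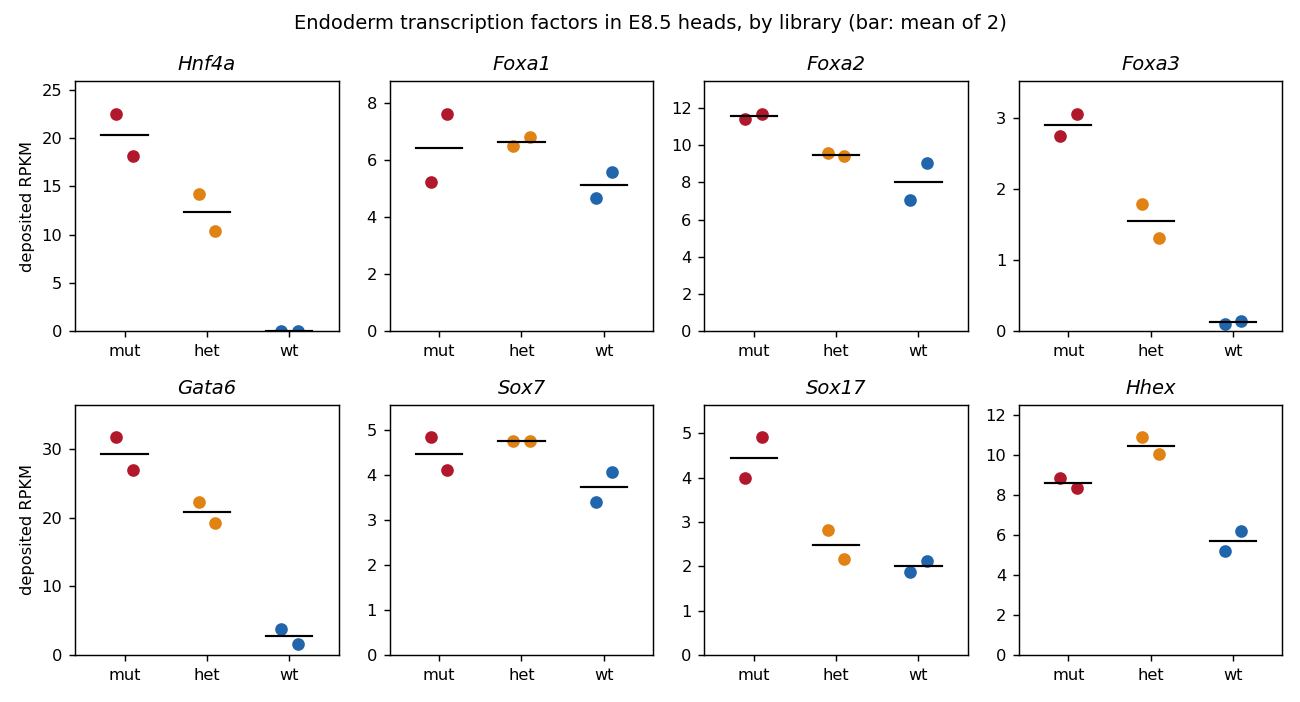
Deposited RPKM (vertical axes, linear from 0) of each of the 8 factors in the mutant, heterozygous and wild-type libraries; points are libraries and the bar is the mean of 2. Hnf4a and Foxa3 sit near 0 in both wild-type libraries, while Foxa1 and Sox7 span 4.69 to 7.64 and 3.41 to 4.84 RPKM over all 6.

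Hnf4a, a nuclear receptor that in this stage's embryo marks visceral endoderm rather than the head, had the widest range. It stood at 22.5 and 18.1 RPKM in mutant, 14.2 and 10.4 RPKM in heterozygous and 0.0501 and 0.0653 RPKM in wild-type libraries. Wild-type heads were almost without it, with 9 and 10 reads (0.223 CPM, 95% exact Poisson interval 0.102 to 0.422, and 0.289 CPM, 0.138 to 0.531; these intervals cover counting error only), against 3714 and 2320 reads in mutant and 1918 and 1353 in heterozygous libraries. The genotypes did not overlap. Hnf4a rose by 8.46 on the log2 scale (SE 0.29, adjusted p = 0.000247) in mutant heads, and by 7.73 in heterozygous heads (SE 0.29, adjusted p = 0.000597), both against wild type. Heterozygous heads had 60.5% of the mutant mean. The mutant against heterozygous difference of 0.73 (SE 0.18, 95% interval 0.30 to 1.17, adjusted p = 0.112) did not pass, though DESeq2 passed it (adjusted p = 0.00531). The gene lies on chromosome 2 from 163506808 to 163572910 on the plus strand of GRCm38, and its antisense gene Hnf4aos, which overlaps it by 34913 bases, had 9 and 5 reads in mutant, 2 and 2 in heterozygous and 0 and 0 in wild-type libraries.

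Hnf4a has 2 RefSeq starts 40.3 kb apart, and whole-gene counts sum over both. The 250 bases before each start, and before the starts of Foxa3 and Foxa1, are shown because Hnf4a and Foxa3 had the largest differences and Foxa1, in the same family as Foxa3, one of the smallest. They are from RefSeq on GRCm38.p6, 5′ to 3′ on the gene's strand, with matches to 4 short motifs in capitals: AGATAA for GATA factors, TGTTTAC and TGTTTGC for forkhead factors, and CAAAGTC as part of an HNF4 site, each searched on both strands.
Hnf4a, upstream start, chr2:163506607-163506856, plus strand: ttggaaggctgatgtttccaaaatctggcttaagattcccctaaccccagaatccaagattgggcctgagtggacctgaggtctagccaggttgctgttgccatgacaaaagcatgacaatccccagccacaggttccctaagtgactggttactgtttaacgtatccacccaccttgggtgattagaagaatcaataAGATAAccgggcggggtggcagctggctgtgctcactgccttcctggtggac
Hnf4a, downstream start, chr2:163546905-163547154, plus strand: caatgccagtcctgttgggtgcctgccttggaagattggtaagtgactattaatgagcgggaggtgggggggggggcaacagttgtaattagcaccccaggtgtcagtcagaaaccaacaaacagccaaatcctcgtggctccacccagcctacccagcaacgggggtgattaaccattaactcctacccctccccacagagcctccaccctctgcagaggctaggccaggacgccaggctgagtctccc
Foxa3, chr7:19023540-19023789, minus strand: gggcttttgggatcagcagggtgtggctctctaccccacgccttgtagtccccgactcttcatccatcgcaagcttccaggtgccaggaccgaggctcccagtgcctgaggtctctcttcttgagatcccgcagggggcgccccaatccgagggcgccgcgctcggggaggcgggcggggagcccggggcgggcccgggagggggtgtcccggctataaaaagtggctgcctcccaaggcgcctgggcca
Foxa1, chr12:57546112-57546361, minus strand: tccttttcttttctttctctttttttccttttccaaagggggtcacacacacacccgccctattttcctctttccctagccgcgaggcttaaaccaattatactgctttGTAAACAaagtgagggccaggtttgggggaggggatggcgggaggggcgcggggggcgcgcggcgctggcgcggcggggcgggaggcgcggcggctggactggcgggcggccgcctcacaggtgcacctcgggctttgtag

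The GATA motif lay 52 to 47 bases before the upstream Hnf4a start, and 9.99% of 32851 promoter windows of this length hold it. The same motif lay 183 to 178 bases before 1 of the 3 Foxa2 starts, whose windows are not printed. The other Foxa2 windows and the Hhex window held none of the 4 motifs. The window before the downstream Hnf4a start held none of the 4 motifs. The Foxa1 window held the first forkhead motif, found in 3.17% of windows, at 141 to 135 bases, on the other strand. The Foxa3 window, 68.8% G or C, also held none; TGTTTGC is in 4.3% of windows and CAAAGTC in 3.84%. These matches describe the letters only. Of the 8 factors 5 had an entry in the promoter table.

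The 3 Foxa genes encode closely related winged-helix proteins and lie apart in the genome, Foxa3 on chromosome 7 from 19013284 to 19023538, Foxa2 on chromosome 2 from 148042877 to 148046969 and Foxa1 on chromosome 12 from 57540628 to 57546916, all on the minus strand. Foxa3 stood at 2.74 and 3.06 RPKM in mutant, 1.79 and 1.31 RPKM in heterozygous and 0.107 and 0.14 RPKM in wild-type libraries, and like Hnf4a it had only 9 and 10 reads in wild-type heads. It rose by 4.55 on the log2 scale (SE 0.30, adjusted p = 0.000664) in mutant heads, and by 3.64 in heterozygous heads (SE 0.29, adjusted p = 0.00326), both against wild type. No 2 genotypes overlapped, and heterozygous heads had 53.5% of the mutant mean, a difference that did not pass (0.91, SE 0.24, 95% interval 0.31 to 1.5, adjusted p = 0.129).

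Foxa2, which floor plate, notochord and foregut also use, stood at 11.4 and 11.7 RPKM in mutant, 9.55 and 9.39 RPKM in heterozygous and 7.03 and 9.06 RPKM in wild-type libraries. It rose by 0.53 (SE 0.13, adjusted p = 0.0298) in mutant against wild-type heads; it did not pass without mutant replicate 1, mutant replicate 2 or wild-type replicate 1 (adjusted p = 0.0982, 0.113 and 0.0692), and the authors' deposited table gives Foxa2 a false discovery rate of 0.0538. Foxa2 was the highest of the 8 factors in wild-type heads. In heterozygous against wild-type heads its difference was 0.24 (SE 0.13, 95% interval -0.08 to 0.56, adjusted p = 0.327), and in mutant against heterozygous heads 0.29 (SE 0.13, 95% interval -0.03 to 0.61, adjusted p = 0.268).

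Foxa1 stood at 5.24 and 7.64 RPKM in mutant, 6.49 and 6.81 RPKM in heterozygous and 4.69 and 5.58 RPKM in wild-type libraries. The mutant libraries lay on either side of all heterozygous and wild-type values but 1, and overlapped both other genotypes. Its log2 difference was 0.33 (SE 0.19, 95% interval -0.14 to 0.80, adjusted p = 0.235) in mutant heads and 0.37 (SE 0.19, 95% interval -0.10 to 0.85, adjusted p = 0.299) in heterozygous against wild-type heads, neither of which passed. Mutant against heterozygous heads differed by -0.04 (SE 0.19, 95% interval -0.51 to 0.43, adjusted p = 0.918).

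Summed per length, the 3 Foxa genes came to 19.4 and 22.4 RPKM in mutant, 17.8 and 17.5 RPKM in heterozygous and 11.8 and 14.8 RPKM in wild-type libraries. Foxa3 made up 14.1% and 13.7% of that sum in mutant, 10% and 7.5% in heterozygous and 0.906% and 0.945% in wild-type libraries. Foxa2 was the largest part in all 6 libraries, at 52.2% to 61.3%.

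**Figure D2:**
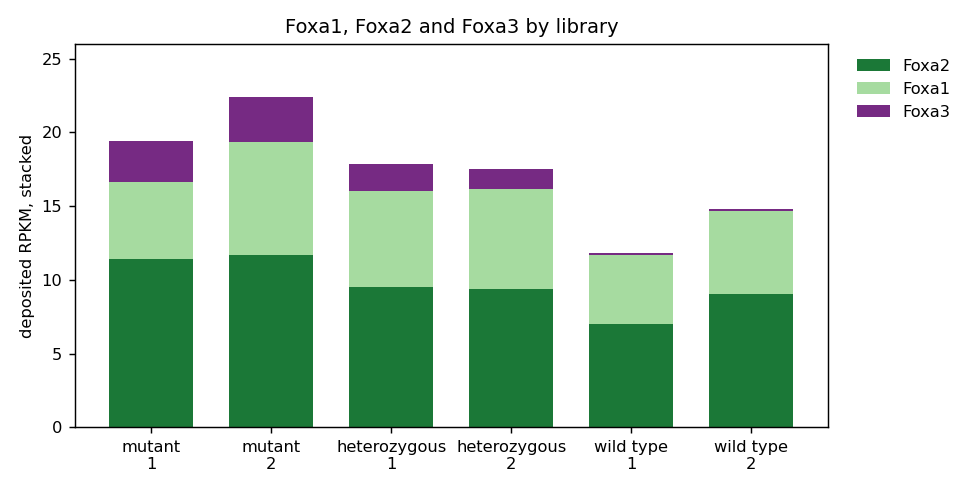
Stacked deposited RPKM of Foxa2, Foxa1 and Foxa3 (vertical axis, from 0) in each of the 6 libraries, mutant at the left and wild type at the right. Foxa3 is a visible band in the mutant and heterozygous libraries and under 1% of the bar in both wild-type libraries.

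Gata6, a zinc finger factor of extraembryonic endoderm, foregut and heart mesoderm, was the highest of the 8 in mutant and in heterozygous heads. It lies on chromosome 18 from 11052064 to 11085635 on the plus strand. It stood at 31.7 and 26.9 RPKM in mutant, 22.3 and 19.2 RPKM in heterozygous and 3.84 and 1.59 RPKM in wild-type libraries, and no 2 genotypes overlapped. The wild-type libraries differed from each other more in Gata6 than in any other of the 8 factors. Gata6 rose by 3.43 on the log2 scale (SE 0.39, adjusted p = 0.00329) in mutant heads, and by 2.93 in heterozygous heads (SE 0.38, adjusted p = 0.0131), both against wild type; the heterozygous call did not pass without heterozygous replicate 1 (adjusted p = 0.0777). Without wild-type replicate 1 the Gata6 values were 4.23 in mutant and 3.71 in heterozygous heads, and without wild-type replicate 2 they were 2.93 and 2.43. Mutant against heterozygous heads differed by 0.50 (SE 0.35, 95% interval -0.35 to 1.36, adjusted p = 0.448), which did not pass. Of 10 heart marker genes 10 rose in mutant and 8 in heterozygous against wild-type heads. The heart genes summed to 1148 and 653 RPKM in mutant, 952 and 1431 RPKM in heterozygous and 120 and 31.7 RPKM in wild-type libraries. Replicate 1 was the higher of its pair in both Gata6 and the heart sum in mutant and in wild-type heads. In heterozygous heads replicate 1 was the higher in Gata6 and the lower in the heart sum. The part of the heart genes in the Gata6 result was not tested. 1010001N08Rik, which overlaps Gata6 by 504 bases on the opposite strand, stood at 10.8 and 10.1 RPKM in mutant, 10.9 and 8.8 RPKM in heterozygous and 1.4 and 0.156 RPKM in wild-type libraries, and whether the counting used strand is not given in the sources used here.

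The SoxF genes Sox17 and Sox7, which encode HMG-box factors, lie on chromosome 1 from 4490931 to 4497354 (Sox17, minus strand) and on chromosome 14 from 63943673 to 63950732 (Sox7, plus strand). Sox17 overlaps Gm37587, on the opposite strand, by 804 bases, and Gm37587 was not analysed here. Sox17 stood at 3.99 and 4.91 RPKM in mutant, 2.82 and 2.15 RPKM in heterozygous and 1.87 and 2.12 RPKM in wild-type libraries. Its mutant libraries were the 2 highest of the 6, while heterozygous replicate 2 was close to the higher wild-type library. Sox17 rose by 1.16 on the log2 scale (SE 0.18, 2.24-fold, adjusted p = 0.00774) in mutant against wild-type heads, and the heterozygous difference of 0.32 (SE 0.18, 95% interval -0.12 to 0.76, adjusted p = 0.337) did not pass. Mutant against heterozygous heads differed by 0.84 (SE 0.18, 95% interval 0.40 to 1.28, adjusted p = 0.0955), which did not pass edgeR's quasi-likelihood test but did pass DESeq2 (adjusted p = 0.0045). Sox17 had the smallest p of the 8 between mutant and heterozygous heads.

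Sox7 stood at 4.84 and 4.12 RPKM in mutant, 4.75 and 4.77 RPKM in heterozygous and 3.41 and 4.06 RPKM in wild-type libraries. The lower mutant library was close to the higher wild-type one. Its difference was 0.27 (SE 0.14, 95% interval -0.06 to 0.61, adjusted p = 0.180) in mutant and 0.35 (SE 0.14, 95% interval 0.02 to 0.69, adjusted p = 0.193) in heterozygous against wild-type heads, and neither passed. Mutant and heterozygous libraries overlapped, with a difference of -0.08 (SE 0.14, 95% interval -0.41 to 0.25, adjusted p = 0.77). Of the RPKM of both SoxF genes together, Sox17 made up 45.2% and 54.4% in mutant, 37.3% and 31.1% in heterozygous and 35.4% and 34.3% in wild-type libraries.

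Hhex, a homeobox factor of anterior visceral endoderm, foregut and endothelium, was the only one of the 8 whose 2 heterozygous libraries both lay above both mutant libraries. It lies on chromosome 19 from 37434810 to 37440731 on the plus strand. It stood at 8.85 and 8.34 RPKM in mutant, 10.9 and 10.1 RPKM in heterozygous and 5.21 and 6.19 RPKM in wild-type libraries. Against wild-type heads, Hhex rose by 0.60 on the log2 scale in mutant heads (SE 0.12, adjusted p = 0.0168) and by 0.88 in heterozygous heads (SE 0.12, adjusted p = 0.016). The mutant against heterozygous difference was -0.28 (SE 0.12, 95% interval -0.58 to 0.02, adjusted p = 0.258) and did not pass. The mutant call was lost without mutant replicate 1, mutant replicate 2 or wild-type replicate 1 (adjusted p = 0.0812, 0.0564 and 0.0647) and the heterozygous call without heterozygous replicate 1 (adjusted p = 0.0864). For mutant against wild-type heads, the false discovery rate of Hhex is 0.0585 in the authors' deposited table, beside 0.464 for Foxa1 and 0.633 for Sox7, while Hnf4a, Gata6, Foxa3 and Sox17 run between 3.32e-160 and 0.000223 there.

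**Figure D3:**
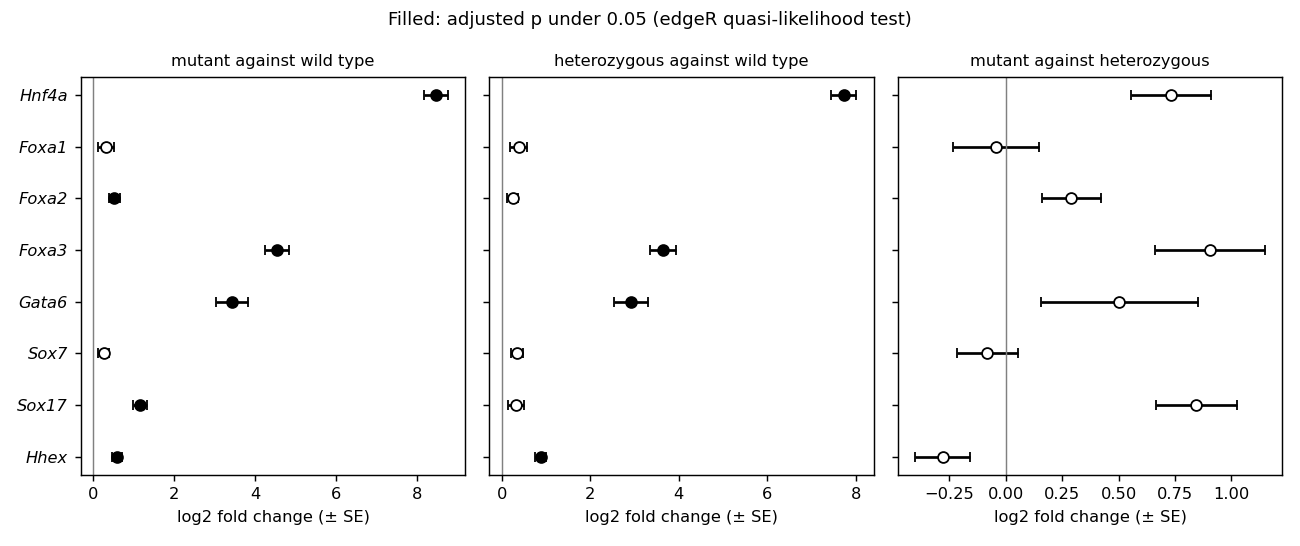
Log2 fold change (horizontal axes, edgeR, bars show ± SE) of the 8 factors in the 3 comparisons; filled points have an adjusted p under 0.05, and the axis of mutant against heterozygous heads is narrower than the other two. Hnf4a, Foxa3 and Gata6 lie far to the right against wild type, and no point is filled in mutant against heterozygous heads.

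The order of levels per length differed between genotypes. In mutant heads the order of mean RPKM was Gata6, Hnf4a, Foxa2, Hhex, Foxa1, Sox7, Sox17 and Foxa3, with only Sox7 and Sox17 overlapping among neighbours. In heterozygous heads it was Gata6, Hnf4a, Hhex, Foxa2, Foxa1, Sox7, Sox17 and Foxa3, and Hnf4a overlapped Hhex. In wild-type heads it was Foxa2, Hhex, Foxa1, Sox7, Gata6, Sox17, Foxa3 and Hnf4a, where Hhex overlapped Foxa1, Sox7 overlapped Gata6 and Gata6 overlapped Sox17. Among all genes tested, the mean RPKM of Hnf4a was above 73.5% of genes in mutant, 62.4% in heterozygous and 2.27% in wild-type heads, while that of Foxa1 was above 48.1%, 48.3% and 44.2%.

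The products of visceral endoderm moved in the same libraries. A list of 13 hepatic-type product genes, such as apolipoproteins and transthyretin, summed to 2486 and 2099 RPKM in mutant, 1214 and 832 RPKM in heterozygous and 5.51 and 9.34 RPKM in wild-type libraries; 13 of 13 rose in mutant and 12 of 13 in heterozygous against wild-type heads. A list of 15 further visceral endoderm markers summed to 1082 and 876 RPKM in mutant, 563 and 442 RPKM in heterozygous and 46.4 and 56.7 RPKM in wild-type libraries, and 15 of 15 rose in mutant and 12 of 15 in heterozygous against wild-type heads. In wild-type libraries Dab2 (29.7 and 27.7 RPKM) and Lrp2 (9.64 and 9.98 RPKM) together made up most of that sum. The wild-type sum therefore does not describe the rest of the list. Both genes were named after their values were seen, and both enter the scaling described next. Of the second list, Slc2a2, a glucose transporter, rose by 10.31 (SE 0.35, adjusted p = 0.000247) in mutant heads. That size rests on 1 and 2 reads in the wild-type libraries. It was 9.82 without wild-type replicate 1 and 10.92 without wild-type replicate 2. Cited1, a transcriptional coactivator, rose by 4.19 (SE 0.15, adjusted p = 0.000247) in mutant heads. Spp2 and, from the first list, Apoc3 had 0 reads in both wild-type libraries. Their part in the results on the 8 factors was not tested, except that the mutant and heterozygous libraries could be scaled to both lists.

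Scaled to the summed counts of those 28 genes, the mutant against heterozygous median of all genes moved to -0.93 on the log2 scale. Of 15187 genes, 139 passed as higher and 11258 as lower. On that scale Hnf4a was at -0.18 (SE 0.35, adjusted p = 0.644), Foxa3 at 0.02 (SE 0.52, not passed) and Sox17 at -0.04 (SE 0.36, adjusted p = 0.921), all above the shift of all genes. Gata6, at -0.42 (SE 0.31, adjusted p = 0.209), and Foxa2, at -0.63 (SE 0.32, adjusted p = 0.0593), did not pass and were also above that shift. On the same scale Foxa1 was at -0.95 (SE 0.32, adjusted p = 0.00595) and Sox7 at -1.02 (SE 0.34, adjusted p = 0.00533), near it and both passed as lower. Hhex, also passing as lower, was at -1.20 (SE 0.35, adjusted p = 0.00181). These calls include the shift of all genes, and without this scaling 0 of the 8 factors passed edgeR's quasi-likelihood test. Per 1000 summed RPKM of the 28 genes, Foxa3 came to 0.767 and 1.03 RPKM in mutant and 1.01 and 1.03 RPKM in heterozygous libraries, and Sox17 to 1.12 and 1.65 RPKM in mutant and 1.59 and 1.69 RPKM in heterozygous libraries. Hnf4a came to 6.32 and 6.09 RPKM in mutant and 7.99 and 8.16 RPKM in heterozygous libraries, and Gata6 to 8.88 and 9.05 RPKM in mutant and 12.5 and 15.1 RPKM in heterozygous libraries. Hhex was the farthest apart by ratio, at 2.48 and 2.80 RPKM in mutant against 6.13 and 7.90 RPKM in heterozygous libraries.

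**Figure D4:**
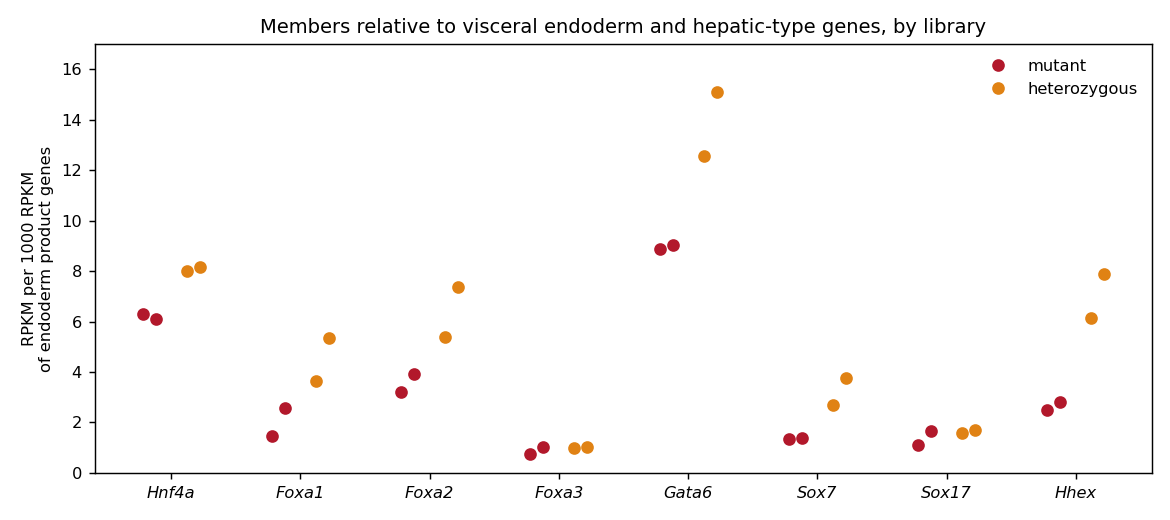
RPKM of each factor per 1000 summed RPKM of the 28 visceral endoderm and hepatic-type genes (vertical axis, linear from 0) in the 2 mutant and 2 heterozygous libraries; points are libraries. Mutant and heterozygous points overlap for Foxa3 and Sox17, and the mutant points lie lower for the other 6.

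Of 15 other endoderm factors tested, 8 rose and 0 fell in mutant and 7 rose and 0 fell in heterozygous against wild-type heads, with a median log2 fold change of 2.38 and 1.25; in mutant against heterozygous heads 0 passed edgeR's test, with 3 at an unadjusted p under 0.05. Among those that rose in mutant heads were Gata4, Gata5, Eomes, Lhx1, Foxh1 and Creb3l3, and Eomes was the one that did not pass in heterozygous heads. Gata4, a partner of Gata6 in endoderm and heart, stood at 48.3 and 33.9 RPKM in mutant, 33.9 and 27.9 RPKM in heterozygous and 2.35 and 0.596 RPKM in wild-type libraries, with a mutant rise of 4.79 (SE 0.56, adjusted p = 0.00358). Gata5, of the same family, rose by 4.06 (SE 0.58, adjusted p = 0.00628). Foxh1, a forkhead partner of Nodal-activated Smads, rose by 3.06 (SE 0.37, adjusted p = 0.00384), and Lhx1, a LIM homeobox gene of anterior visceral endoderm and mesendoderm, by 5.08 (SE 0.67, adjusted p = 0.005). Without wild-type replicate 1 these values were 6.13 for Gata4, 5.26 for Gata5 and 6.79 for Lhx1, and without wild-type replicate 2 they were 4.13 for Gata4, 3.42 for Gata5 and 4.35 for Lhx1. Gata5 overlaps its antisense gene Gata5os by 1843 bases. Hnf4g, a paralog of Hnf4a, was listed at 0.0154 RPKM or less in every library and was not tested.

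Of 10 foregut genes 1 rose and 2 fell in mutant against wild-type heads (median log2 fold change -0.47), where 30.6% of all genes passed. Nkx2-1, the thyroid and lung factor that ventral forebrain also uses, stood at 0.0654 and 0.0721 RPKM in mutant, 0.114 and 0.567 RPKM in heterozygous and 1.28 and 1.26 RPKM in wild-type libraries (log2 fold change -4.17 in mutant against wild-type heads, SE 0.77, adjusted p = 0.0129). The Nkx2-1 call was lost without mutant replicate 1 (adjusted p = 0.0805) and without mutant replicate 2 (adjusted p = 0.0676). The other gene of the list that fell was Pax9, at -0.74 in mutant against wild-type heads (SE 0.15, adjusted p = 0.0152). Spink3, a secreted protease inhibitor, rose by 5.33 (SE 0.41, adjusted p = 0.00104) and stood at 193 and 193 RPKM in mutant, 141 and 66.3 RPKM in heterozygous and 4.49 and 5.2 RPKM in wild-type libraries. The whole list summed to 234 and 252 RPKM in mutant, 184 and 109 RPKM in heterozygous and 42.4 and 40.7 RPKM in wild-type libraries. Spink3 alone made up most of that sum in each mutant and heterozygous library, so the sum does not describe the rest of the list.

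Of 14 markers of endothelium, which uses Sox7, Sox17 and Hhex, 1 rose and 0 fell in mutant against wild-type heads, where 17.1% of all genes passed as higher and 13.6% as lower. It was Tek, an angiopoietin receptor, which rose by 1.60 (SE 0.18, adjusted p = 0.00301). Among the 13 that did not pass, Emcn, an endothelial sialomucin, was at -1.56 (SE 0.50, adjusted p = 0.064) and Pecam1, an adhesion molecule, at 0.68 (SE 0.28, adjusted p = 0.113), both named after their values were seen. The endothelial list summed to 187 and 181 RPKM in mutant, 159 and 173 RPKM in heterozygous and 136 and 189 RPKM in wild-type libraries. Of 10 floor plate and notochord markers, tissues that use Foxa1 and Foxa2, 5 fell and 1 rose in mutant against wild-type heads (median log2 fold change -0.70), with Nkx2-9 at -2.04 (SE 0.29, adjusted p = 0.00608) and Spon1 at -1.02 (SE 0.21, adjusted p = 0.0184). The Spon1 call was lost without mutant replicate 2 (adjusted p = 0.0802), without wild-type replicate 2 (adjusted p = 0.0505) and when scaled to the neural progenitor list (-0.19, adjusted p = 0.376). The floor plate and notochord list summed to 36.3 and 45.5 RPKM in mutant, 49.2 and 56.4 RPKM in heterozygous and 60.5 and 68.7 RPKM in wild-type libraries. Of 10 parietal endoderm genes, many of them basement membrane genes used by several tissues, 6 rose and 1 fell in mutant against wild-type heads (median log2 fold change 0.36). Among those that rose were Sparc by 1.01 (SE 0.13, adjusted p = 0.00504) and Pth1r by 1.95 (SE 0.16, adjusted p = 0.00114). Pth1r stood at 32.6 and 29.3 RPKM in mutant, 24.0 and 18.1 RPKM in heterozygous and 7.55 and 8.55 RPKM in wild-type libraries. It also passed in heterozygous against wild-type heads (1.39, SE 0.16, adjusted p = 0.00806). Thbd, a receptor that parietal endoderm shares with endothelium, stood at 1.43 and 2.59 RPKM in mutant, 1.71 and 1.47 RPKM in heterozygous and 1.12 and 2.23 RPKM in wild-type libraries, and was named after its values were seen. Of 7 mid- and hindgut and tailbud markers 4 rose in mutant against wild-type heads, and the list summed to 20.5 and 84.8 RPKM in mutant, 11.7 and 9.36 RPKM in heterozygous and 7.41 and 6.75 RPKM in wild-type libraries. Of 7 epithelial markers 5 rose in mutant and 4 in heterozygous against wild-type heads. Of 10 neural progenitor markers 0 rose and 8 fell in mutant against wild-type heads (median log2 fold change -0.84), and the list summed to 171 and 182 RPKM in mutant, 247 and 267 RPKM in heterozygous and 308 and 293 RPKM in wild-type libraries. The part of any of these tissues in the results on the 8 factors was not tested.

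**Figure D5:**
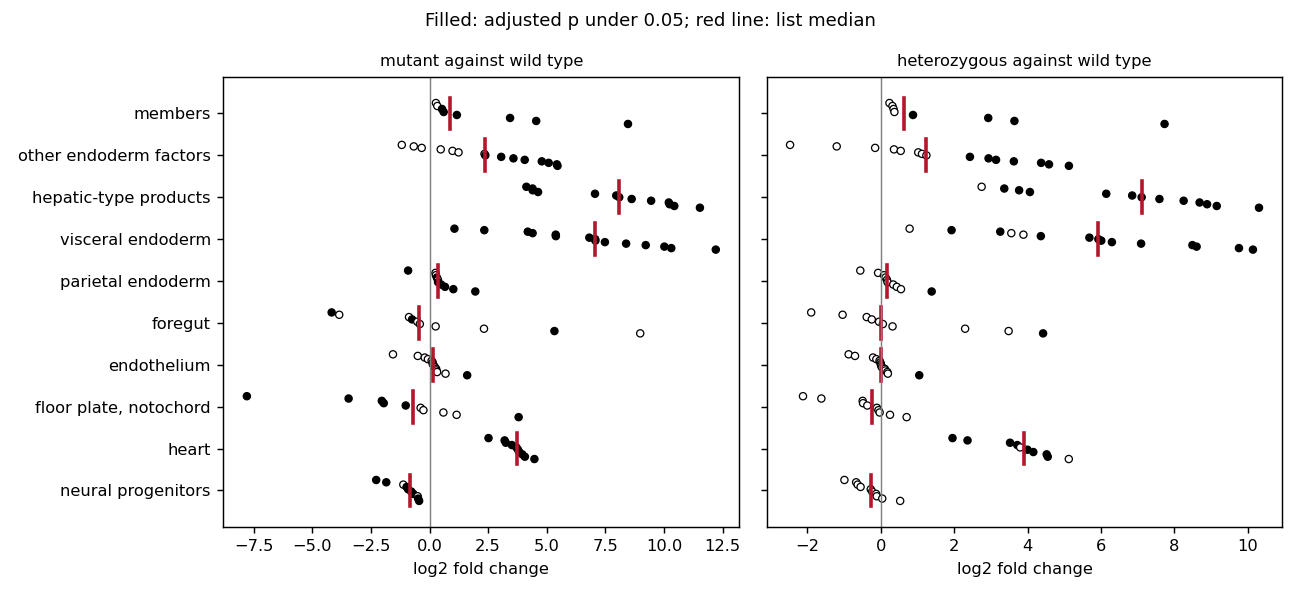
Log2 fold change (horizontal axes) of each gene of the 8 factors and of 9 marker lists, in mutant and in heterozygous against wild-type heads; points are genes, filled where the adjusted p was under 0.05, and the red line is the list median. The visceral endoderm lists have medians of 7.06 and 8.09 in mutant heads, and the endothelial list one of 0.16.

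The genes whose pattern over the 6 libraries was nearest to each factor were found among 12568 genes by the root mean square difference of centred log2(CPM + 0.5). Nearest to Hnf4a were Car7, a carbonic anhydrase, at a distance of 0.0985, Slc2a2 at 0.101 and Apom, an apolipoprotein, at 0.195. The added 0.5 CPM exceeds Hnf4a itself in wild-type libraries (0.218 and 0.284 CPM), so differences among genes near 0 there hardly enter the distance. Despite their small distance, Slc2a2 rose by 10.31 and Hnf4a by 8.46 on the log2 scale in mutant against wild-type heads. Foxa3 was nearest to Hsd17b11 (0.114), Lgmn, a lysosomal protease (0.133), and Tm4sf5 (0.138), and Gata6 to Smarcd3, a cardiac chromatin remodelling subunit (0.0651), and Hkdc1 (0.195). Car7 stood at 104 and 77.6 RPKM in mutant, 54.6 and 39.3 RPKM in heterozygous and 0.347 and 0.389 RPKM in wild-type libraries, and Smarcd3 at 52.3 and 39.6 RPKM in mutant, 33.9 and 28.6 RPKM in heterozygous and 5.81 and 2.58 RPKM in wild-type libraries. Foxa2 was nearest to Frem1 (0.0399), Foxa1 to Mpzl2 (0.0855), Sox7 to Ptgr2 and Larp1b (both 0.0309), Sox17 to Tmem79 (0.118) and Hhex to Rem2 (0.0551). These distances describe 6 libraries and were not tested.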

How the data were processed

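Gene counts of each library were deposited without normalization. The series table holds RPKM of each library and, from the authors' own comparison, a log2 fold change, a score (the likelihood ratio), a p-value and a false discovery rate per gene, all as deposited. Per the submitters' processing notes, reads were trimmed (Trim Galore 0.4.0), aligned to mm10 (TopHat2 2.0.11), counted (HTSeq 0.6.1p2) and tested (edgeR 3.8.6); no annotation or strand setting is given in the sources used here. The 5 summary lines of each count file were left out.

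Counts, assigned by the sample title in the file name, entered edgeR 4.0.16 under R 4.3.3 (TMM, filterByExpr by group, glmQLFit and glmQLFTest, all 6 libraries in 1 fit, Benjamini-Hochberg adjustment over 15187 genes, threshold 0.05). Each SE follows from the log2 fold change and its F statistic (size over root F), and 95% intervals use the test's degrees of freedom. Alternatives used DESeq2 1.42.0, limma 3.58.1 on log2(RPKM + 0.1) and log2(RPKM + 1), other scalings and filters, and left-out libraries. Replicate numbers follow accession order and pair nothing.

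The 8 factors and the marker lists were chosen with earlier results of these data known. Named are the 8 factors, up to 4 genes of a list with the smallest p in mutant against wild type or with 0 reads in a genotype, the 3 nearest genes of each factor by distance (predicted genes left out, mean of at least 1 CPM, log2 of CPM + 0.5), and genes that overlap a factor. Eomes, Creb3l3 and Hnf4g were named after their values were seen, and a few genes that these rules select are not reported here. GENCODE M21 (GRCm38, which is mm10) gave the gene positions.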

Additional observations from a re-analysis of the deposited data

How the results depend on the processing

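With the count files as attached, 0 factors passed in mutant and 0 in heterozygous against wild-type heads; there Hnf4a (-0.32), Gata6 (-0.33), Sox7 (-0.0163), Gata4 (-0.56), Gata5 (-0.64), Foxh1 (-0.0607), Spink3 (-0.00674), Tek (-0.28), Sparc (-0.0827), Cited1 (-0.0888), Slc2a2 (-0.23) and Nkx2-9 (0.47) took the other sign in mutant against wild-type heads, Sox17 (-0.24) in heterozygous against wild-type heads, and Hnf4a (-0.43) and Gata6 (-0.54) in mutant against heterozygous heads; these fits exchange 1 mutant and 1 wild-type library. Leaving out single libraries gave 4 to 6 factors in mutant against wild type, 2 to 4 in heterozygous against wild type and 0 to 0 in mutant against heterozygous heads, where Foxa1 ranged from -0.346 to 0.203 and Sox7 from -0.206 to 0.0233; a group left with 1 library is assumed to vary like the others. In mutant against heterozygous heads the count was 2 with DESeq2, 2 with the likelihood ratio test, 7 scaled to the neural progenitor list and 3 scaled to the visceral endoderm lists, also 3 on the mutant and heterozygous libraries only, an alternative chosen after seeing the data. The neural scaling moved the median of all genes there by 0.57, with Foxa1 at 0.52, Sox7 at 0.49 and Hhex at 0.28, and by 0.80 in mutant against wild-type heads, where 8 factors passed. The visceral endoderm scaling turned Hnf4a to -0.18, Foxa2 to -0.63, Gata6 to -0.42 and Sox17 to -0.0403, with -0.18, -0.63, -0.42 and -0.0407 on the 4 libraries. All genes called in mutant against heterozygous heads numbered 66, against 1313 with DESeq2, 801 with the likelihood ratio test, 182 without a filter, 106 from only these groups, 9562 and 11397 under the neural and endoderm scalings (9912 on 4 libraries) and 11 to 79 without single libraries. In mutant against wild-type heads they numbered 4654, against 11750 (11393 higher, 357 lower) under the neural scaling and 1997 to 3012 without single libraries; in heterozygous against wild-type heads 997, against 1890 with DESeq2, 1579 with the likelihood ratio test, 1604 under the neural scaling and 313 to 748 without single libraries. The cause was not tested. Limma on RPKM, RLE factors, library totals, no filter and fits of only the groups compared passed the same number of factors as edgeR in each comparison. No paired analysis was possible because the labels give no replicate numbers. Hnf4a and Foxa3 rest on 9 and 10 reads in the wild-type libraries.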
